A study of Mus musculus with 6 samples.

Results

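The regions described here are intergenic stretches of chromatin that carried acetylation of histone H3 at lysine 27 (H3K27ac) in adult mouse muscle. Their centres lay near, but not at, the start of a gene. They were selected on the H3K27ac peak lists of 2 samples. Overlapping or touching regions of both lists were joined, and a joined region was kept when it was narrower than 10000 bp, held bases of both lists, had its centre outside every protein-coding gene, and had that centre more than 1 kb and at most 50 kb from the nearest protein-coding transcript start. Of 52531 joined regions, 35202 held bases of both lists and 5379 met the whole rule. The study used ChIP-seq to map H3K27ac and the transcription factor Maf in nuclei from the gastrocnemius and quadriceps of wild-type C57BL/6N mice that were 2 months old. It holds 2 H3K27ac samples, 2 Maf samples and 2 inputs. No sample was treated or mutant, so the comparisons below are between kinds of region, not between kinds of mice. The whole muscle was used, so a region marked in a few cell types and one marked weakly in all of them cannot be told apart.

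Enhancers are stretches of regulatory DNA that act on a promoter from a distance, often by looping to it, and active ones carry H3K27ac on the nucleosomes beside the bound transcription factors. In muscle fibers such elements hold sites for myogenic bHLH factors and Mef2 proteins, and they set which contractile genes each fiber type expresses. Maf belongs to the large Maf proteins, a group of bZIP factors that bind as dimers to elements built around the core TGCTGAC, and large Maf proteins are known for their role in fast glycolytic fibers.

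Maf list 1 held 74 peaks of 181 bp and Maf list 2 held 5467 peaks of 281 bp, while the H3K27ac lists held 44887 and 44987 regions. The lists give positions with a constant score and without reads, so depth is unknown. Where Maf peaks are ranked below, the rank is their place in the deposited order, which is not stated to follow strength. The tissue was checked on H3K27ac at gene starts. All 24 genes of a fast fiber sarcomere list had H3K27ac of both lists within 1 kb of a start, as did 25 of 25 endothelial genes, 20 of 25 genes of fibro-adipogenic cells, matrix and tendon, 12 of 17 macrophage and blood genes and 9 of 14 adipocyte genes, against 1 of 19 liver genes and 2 of 20 neuronal genes. Of the slow fiber sarcomere list, 10 of 15 genes had such a marked start. Over all protein-coding genes, 12066 of 21827 had one. The shares of the slow fiber, macrophage and blood, and adipocyte lists are close to this. The part of each cell type in the intergenic regions was not tested.

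The sequences that carry the Maf signal are shown for 10 intergenic regions, chosen because their Maf peak was called in both lists, stood near the top of list 2, or lay near a gene with distal elements known from the literature. Each run is the plus strand of GRCm38, 151 bp long and centred on the Maf peak, and capitals mark the Maf core TGCTGAC or its first 6 letters TGCTGA, read on either strand. The windows lie at chr17:87461284-87461434 (Calm2), chr15:78241491-78241641 (Ncf4), chr16:18194636-18194786 (Ccdc188), chr11:67139737-67139887 (Myh2), chr15:101241989-101242139 (Nr4a1), chr19:10952035-10952185 (Ccdc86), chr16:93812450-93812600 (Morc3), chr12:85455137-85455287 (Fos), chr8:115659591-115659741 (Maf) and chr6:5509548-5509698 (Pdk4). Each is named after the gene with the nearest transcript start.
Calm2: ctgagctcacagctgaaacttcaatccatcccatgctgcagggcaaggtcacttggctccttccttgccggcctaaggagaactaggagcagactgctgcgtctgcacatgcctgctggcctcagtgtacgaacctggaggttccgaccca
Ncf4: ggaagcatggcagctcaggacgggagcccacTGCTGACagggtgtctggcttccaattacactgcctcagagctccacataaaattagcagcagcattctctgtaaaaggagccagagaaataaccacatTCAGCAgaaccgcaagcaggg
Ccdc188: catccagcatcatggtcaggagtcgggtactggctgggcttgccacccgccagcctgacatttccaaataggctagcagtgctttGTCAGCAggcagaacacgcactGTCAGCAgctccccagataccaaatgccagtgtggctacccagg
Myh2: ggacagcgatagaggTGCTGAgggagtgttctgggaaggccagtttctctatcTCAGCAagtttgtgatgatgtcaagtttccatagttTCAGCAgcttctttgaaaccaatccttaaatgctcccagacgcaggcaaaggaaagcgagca
Nr4a1: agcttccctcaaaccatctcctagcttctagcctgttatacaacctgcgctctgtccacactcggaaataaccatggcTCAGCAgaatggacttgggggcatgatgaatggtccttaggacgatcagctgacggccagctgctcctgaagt
Ccdc86: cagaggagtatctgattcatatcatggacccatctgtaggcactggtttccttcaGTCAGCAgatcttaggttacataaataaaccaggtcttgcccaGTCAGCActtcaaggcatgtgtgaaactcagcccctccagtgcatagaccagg
Morc3: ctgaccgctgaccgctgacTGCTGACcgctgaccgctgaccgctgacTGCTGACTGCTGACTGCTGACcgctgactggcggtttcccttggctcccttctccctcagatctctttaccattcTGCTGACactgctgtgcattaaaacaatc
Fos: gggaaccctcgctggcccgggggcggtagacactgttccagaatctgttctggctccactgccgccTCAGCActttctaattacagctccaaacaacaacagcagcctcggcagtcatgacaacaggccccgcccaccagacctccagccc
Maf: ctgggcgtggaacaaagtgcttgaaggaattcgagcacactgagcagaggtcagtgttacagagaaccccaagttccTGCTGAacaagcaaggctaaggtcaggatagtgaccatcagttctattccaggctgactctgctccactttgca
Pdk4: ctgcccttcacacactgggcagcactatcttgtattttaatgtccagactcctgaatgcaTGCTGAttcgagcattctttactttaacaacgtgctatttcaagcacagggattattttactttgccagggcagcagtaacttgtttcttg

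The Maf core occurred in 4 of these 10 windows, those named for Ncf4, Ccdc188, Ccdc86 and Morc3, and the short form alone in 5 more. In the Ccdc188 and Ccdc86 windows the core was present 2 times each. The Morc3 window, at position 5 of Maf list 2, held 5 copies of the core, 4 of them within a tandem repeat and 1 past its end. The Calm2 window held neither form, although Maf called it at position 2 of list 1 and position 12 of list 2. It contained a CAGCTG E-box, the site of myogenic bHLH factors. More windows met the same criteria and are not printed. Of these, the windows of Ctsd, Nacc2, Azin1, Grtp1 and both Myod1 regions with Maf held neither form. The rest held at least the short form. The 10 windows are thus no measure of all 512 Maf peaks in the regions, of which 52.3% had the short form in windows of 200 bp.

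Both Maf lists called a peak in 13 of the 5379 regions. The first of these in list 1 lay 12.5 kb upstream of Calm2, which encodes calmodulin, the calcium sensor that acts in excitation-contraction coupling and in calcineurin signalling. This region was 5067 bp wide, with 5023 bp in H3K27ac list 1 and 5005 bp in list 2, so both samples marked nearly all of it. It also covered the start of a long intergenic noncoding RNA, AC122818.4. Both other intergenic regions of Calm2, 27 and 31.5 kb upstream, were 1780 and 924 bp wide and held no Maf peak.

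The widest region with Maf in both lists lay 29.8 kb upstream of Myh2, the gene of myosin heavy chain IIa at one end of the cluster of fast myosin genes. It spanned 9551 bp, 9317 bp of them in H3K27ac list 1 and 8753 bp in list 2, and its Maf peak stood at position 26 of Maf list 1 and position 166 of Maf list 2. Regions 17.6 and 7.44 kb upstream of Myh2 were 1108 and 1534 bp wide and had no Maf peak. No intergenic region had Myh1 or Myh4, the fast myosin genes beside it, as its nearest gene. The intergenic space open to such a region was 1.60 kb for Myh1 and 12.4 kb for Myh4.

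The Maf peak of the region centred 2.31 kb upstream of Ncf4, which encodes a subunit of the phagocyte NADPH oxidase, stood at position 7 of list 1 and position 40 of list 2. This region was 7591 bp wide and reached over the start of Ncf4. The start of Pvalb, the gene of the calcium buffer parvalbumin of fast fibers, lay 36.1 kb from the centre of the same region. Which gene the region acts on was not tested, so the nearest gene is only a label. A further region with a Maf peak in list 2, at position 2159, lay 4.22 kb upstream of Pvalb itself. The region of Ccdc86, with Maf in both lists, was centred 1.73 kb upstream. It was 5547 bp wide and likewise covered the start of its gene. Of the other regions called in both lists, that of Nr4a1, an immediate-early gene of an orphan nuclear receptor, lay 13.5 kb upstream at positions 30 and 626, and a second Nr4a1 region 7.31 kb upstream had a Maf peak in list 2 alone, at position 1754. The regions of Fgd2, Arhgap35 and Tmem11 stood at positions 11, 14 and 25 of list 1 and at positions 84, 120 and 319 of list 2. A gene order read from one Maf list would therefore differ from that read from the other.

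Of the 15 peaks of list 2 that came first among those inside intergenic regions, the first stood 19.6 kb upstream of Morc3, a nuclear protein of the Morc family. St3gal6, a sialyltransferase gene, and Fam181a followed at positions 8 and 11. The peak 18.5 kb upstream of Fos, the immediate-early gene of an AP-1 subunit, stood at position 33. Its region was 2545 bp wide, with 2545 bp in H3K27ac list 1 and 2506 bp in list 2.

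Fos had 9 intergenic regions, 6 upstream and 3 downstream, between 8.97 and 38.3 kb from its start, and 1 of them held Maf. Only Xpnpep1, an aminopeptidase gene, had more, with 10 regions that all lay upstream over 45.3 kb and held no Maf peak. They were between 779 and 1957 bp wide. Irf2bp2, a transcriptional corepressor gene, had 8 regions and 1 Maf peak. Of the 7 genes with 7 regions, Tnp1, which encodes a transition protein of spermatid chromatin, had Maf in 2 of them, at positions 79 and 2419 of list 2, and Anapc15-ps also had it in 2, at positions 1562 and 2327. H3K27ac of both lists did not mark the start of either gene. Bod1, which acts at the mitotic kinetochore, had 1 region with Maf. The others, Sik1, a salt-inducible kinase, Wnt11, a secreted Wnt ligand, Ppp1r3c, a glycogen-targeting subunit of protein phosphatase, and Alox5ap, had none.

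Genes with known distal elements were described next. Myod1, the myogenic bHLH factor with a core enhancer and a distal regulatory region upstream, had 4 regions, at 36.7, 26.2, 23.2 and 2.26 kb upstream. The farthest and the nearest of them were 5752 and 9808 bp wide and held Maf peaks at positions 2286 and 2797 of list 2, and the pair between them, 1352 and 2231 bp wide, held none. The nearest region reached over the start of Myod1. Such regions, whose centre passed the rule although they covered a protein-coding start, numbered 122 of 5379.

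Pdk4, the kinase that restrains pyruvate oxidation, had a 4128 bp region 13.1 kb upstream with a Maf peak at position 2053. Its other region, 630 bp wide and 48.5 kb downstream, had no Maf peak. The Maf gene itself had a 1583 bp region 3.74 kb upstream without Maf and a 2320 bp region 46.5 kb downstream with a peak at position 510 of list 2. Single regions upstream of Myog, Myf6 and Des, at 13.9, 20 and 14.1 kb, carried no Maf peak, and neither did both regions downstream of Mb, the myoglobin gene, nor both upstream of Ppargc1a, the coactivator of oxidative genes. Fkbp5, a glucocorticoid-induced gene, had 1 region 5.45 kb upstream with no Maf peak. No region was nearest to Myf5, Ckm or Per1. The map of regions around 7 genes shows these arrangements.

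**Figure D1:**
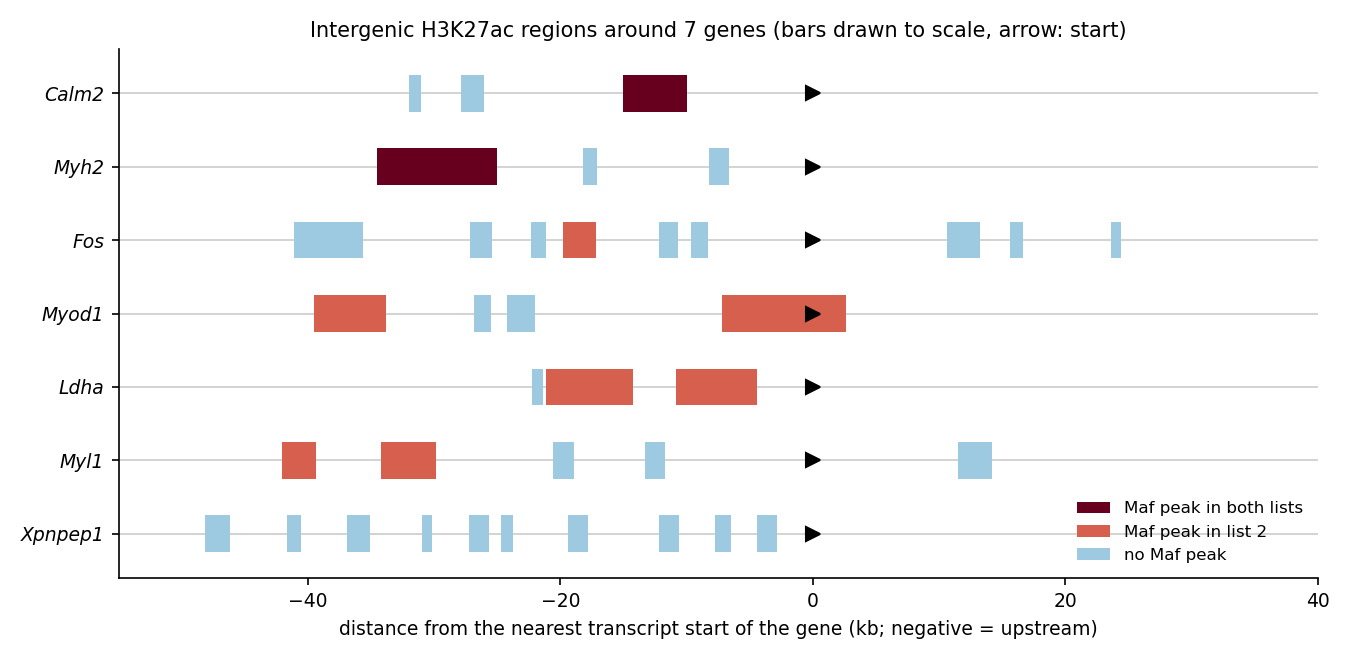
Intergenic H3K27ac regions around Calm2, Myh2, Fos, Myod1, Ldha, Myl1 and Xpnpep1, drawn by their distance from the nearest start of each gene in kb. Dark bars hold a Maf peak of both lists, red bars one of list 2 and blue bars none. Maf of both lists is seen 12.5 kb upstream of Calm2 and 29.8 kb upstream of Myh2, and the 10 regions of Xpnpep1 are all blue.

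The first question was whether Maf lay in these regions more often than in other marked regions. A Maf peak of either list was held by 495 of 5379 intergenic regions (9.20%, 95% Clopper-Pearson interval 8.44 to 10.0), against 1389 of 15662 distal regions inside genes (8.87%, 8.43 to 9.32), 376 of 4074 regions beyond 50 kb (9.23%, 8.36 to 10.2) and 748 of 9263 promoters (8.08%, 7.53 to 8.65). Over all 35202 joined regions with bases of both lists, broad ones included, the share was 9.50%. The intergenic regions thus stood near the background. Their difference from distal regions inside genes was 0.334 percentage points (95% Newcombe interval -0.538 to 1.25) and that from regions beyond 50 kb -0.0268 points (-1.22 to 1.14), so that neither was told from 0. The share was 1.13 points (0.189 to 2.09) above that of promoters. These intervals cover counting error over regions only, and regions of one genome are not replicates of the mice.

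All 495 of these regions had a peak of list 2, and 13 of them had one of list 1 as well. By list 1 alone the share was 0.242% (0.129 to 0.413) in intergenic regions, against 0.121% (0.0731 to 0.189) in distal regions inside genes, 0.172% (0.0691 to 0.354) beyond 50 kb and 0.0432% (0.0118 to 0.111) at promoters. The difference from promoters was 0.198 points (0.0774 to 0.372) and the difference from distal regions inside genes 0.120 points (-0.000931 to 0.297). The classes other than promoters were not separated by the shorter list.

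The share with Maf went with the width of the region, in every class shown. Among intergenic regions it was 3.71% (27 of 727) up to 1000 bp, 5.96% (150 of 2516) up to 2000 bp, 12.2% (193 of 1580) up to 4000 bp and 22.5% (125 of 556) above that. Regions with Maf had a median width of 2574 bp, and those without a median of 1711 bp. Width matters for the comparison because intergenic regions were narrower, with a median of 1763 bp, than distal regions inside genes (1941 bp) and promoters (2040 bp).

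With the other classes weighted to the widths of the intergenic regions, their shares came to 7.78% for distal regions inside genes, 9.62% beyond 50 kb and 7.19% at promoters. The difference from distal regions inside genes then became 1.42 points (95% normal interval 0.563 to 2.28) and that from promoters 2.01 points (1.09 to 2.93), and that from regions beyond 50 kb remained within its error at -0.418 points (-1.61 to 0.772). In the widest bin, 22.5% (19.1 to 26.2) of intergenic regions held Maf, against 18.6% (17.1 to 20.1) of distal regions inside genes. The direction of this difference was the same in all 4 width bins, and its interval included 0 between 1000 and 2000 bp (0.265 points, -0.781 to 1.40). The bins of width were chosen with the earlier results known.

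**Figure D2:**
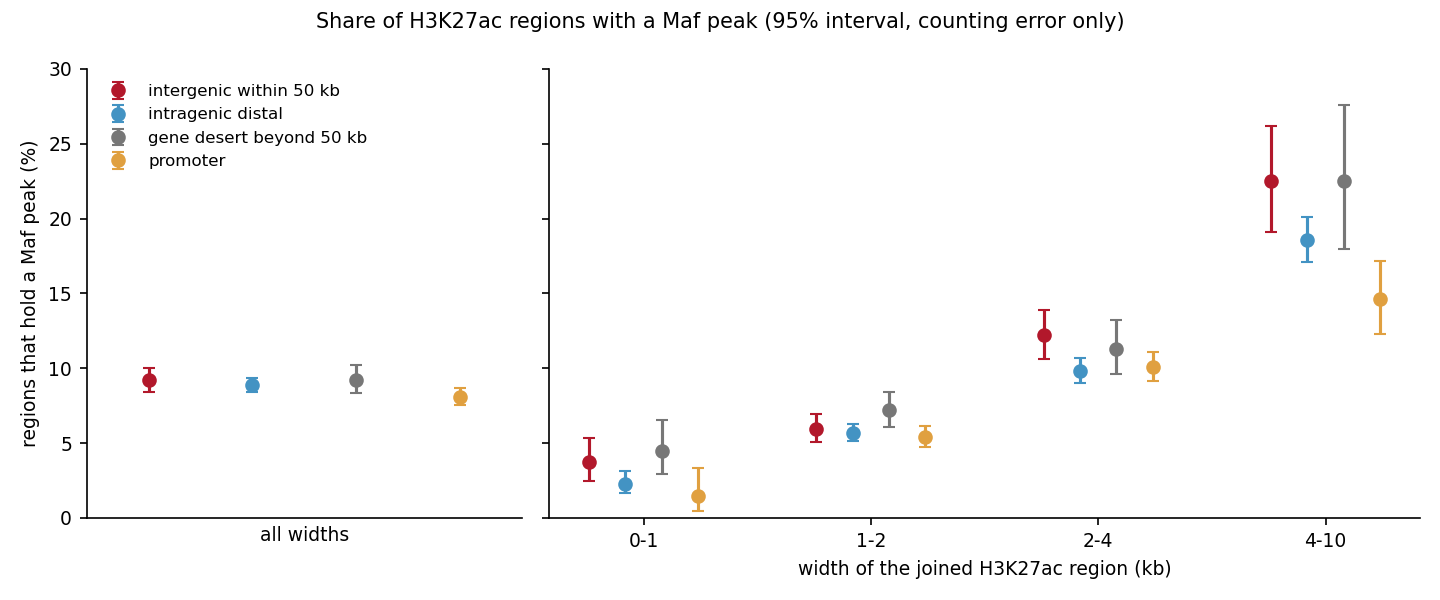
Percentage of H3K27ac regions that hold a Maf peak of either list, for intergenic regions within 50 kb, distal regions inside genes, regions beyond 50 kb and promoters, over all widths (left) and by width in kb (right). Points are shares and lines 95% Clopper-Pearson intervals. Intergenic regions lie at 9.20% over all widths and run between 3.71% in the narrowest and 22.5% in the widest bin.

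Inside the regions Maf lay close to the middle. Of 5485 joined Maf peaks, 512 (9.33%) fell in an intergenic region, and 17 regions held 2 of them. The centre of a Maf peak was a median of 314 bp from the centre of its region (quartiles 120 and 727 bp). The inner 50% of the width held 77.7% of the Maf centres. The outermost 10% and the sequence past it held 2.54%, which includes 6 centres that lay past an edge. H3K27ac widths were alike in both samples, with medians of 1551 and 1600 bp per list and a Spearman rho of 0.870 across regions, which describes regions that were selected for being in both lists.

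Maf peaks near the top of list 2 were in intergenic regions more often than those near its end. The first 1366 peaks had 165 in such regions (12.1%, 10.4 to 13.9) and the last 1367 had 57 (4.17%, 3.17 to 5.37). Peaks at the end were less often marked by H3K27ac at all, with 481 of 1367 in any joined region, against 1249 of the first 1366. Among marked peaks the intergenic share was 13.2% for the first and 11.9% for the last of these groups. The fall along the list thus went with the share of marked peaks.

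The regions lay a median of 17171 bp from the nearest transcript start (quartiles 8422 and 30086 bp), and 1632 of them were within 10 kb. Most were upstream, with 3903 (72.6%) against 1476 (27.4%) downstream. The sequence that the rule allows is itself mostly upstream, since the DNA downstream of a start is usually the gene. It came to 363 Mb upstream and 145 Mb downstream, so that regions numbered 10.7 per Mb upstream and 10.2 per Mb downstream and covered 2.22% and 2.17% of the space. Upstream, the density was 10.4 per Mb between 1 and 5 kb, 12.3 between 5 and 10 kb, and 9.49 between 40 and 50 kb. Downstream it was 7.43 per Mb between 1 and 5 kb, from 66 regions, and 11.1 between 20 and 30 kb. These densities describe the selected regions and were not tested.

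**Figure D3:**
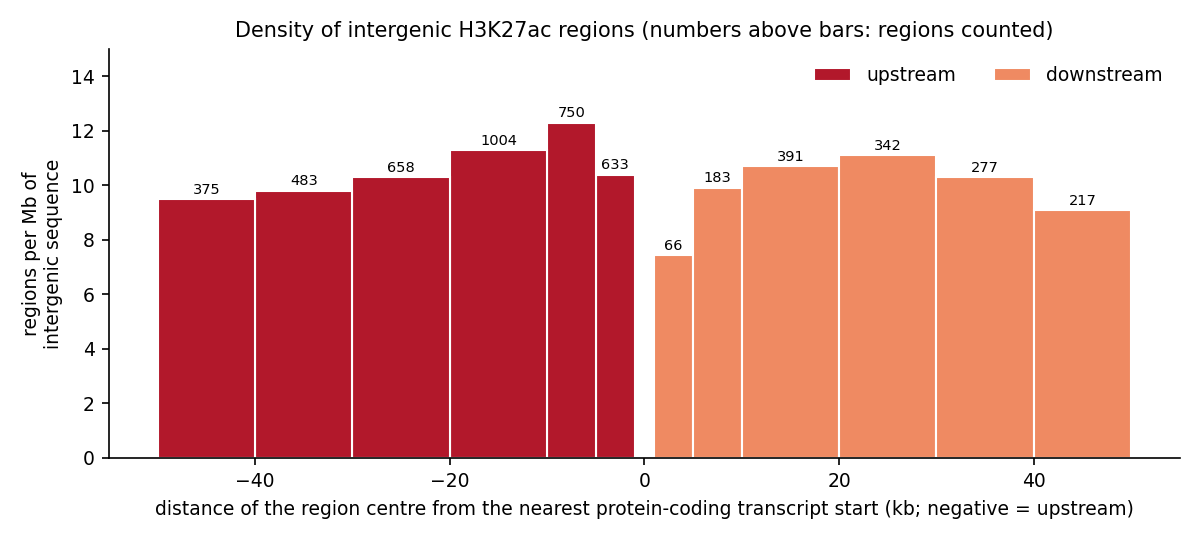
Number of intergenic H3K27ac regions per Mb of intergenic sequence at each distance in kb from the nearest protein-coding transcript start, upstream (negative) and downstream, with the number of regions above each bar. The bars run between 7.43 and 12.3 per Mb, with no steep fall toward 50 kb.

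Maf did not follow distance closely. A Maf peak was held by 7.73% (5.86 to 9.96) of regions between 1 and 5 kb, 10.6% (9.04 to 12.3) between 10 and 20 kb, and 9.63% (7.37 to 12.3) between 40 and 50 kb. The shares were 9.30% (8.41 to 10.3) upstream and 8.94% (7.54 to 10.5) downstream. All of these intervals overlap.

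Many regions had a neighbor. The median gap to the nearest other H3K27ac region of both lists was 5595 bp. When intergenic regions up to 10 kb apart were linked, 2983 stayed alone, and 1156 (21.5%) stood in 327 groups of 3 or more. The largest group was that of Xpnpep1, and the next held 8 regions over 52.8 kb beside Atp23 and Ctdsp2 with 1 Maf peak, followed by 8 regions over 42.9 kb beside Snai1 and Ube2v1 with none. The share with Maf was 9.26% (7.65 to 11.1) in groups of 3 or more, against 8.72% (7.73 to 9.79) for regions that stood alone, so grouping did not separate them.

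At the level of genes, an intergenic region was nearest to 3430 of 21827 protein-coding genes (15.7%), and a region with Maf to 462 (2.12%). Most of these genes had 1 region (2259), and 485 had 3 or more. Genes whose own start carried H3K27ac had a region more often, in 2622 of 12066 cases (21.7%) against 808 of 9761 (8.28%) for genes without it. Per Mb of intergenic sequence this was 18 regions against 4.23. Both measures come from the same H3K27ac lists that chose the regions, so this is a description with no test. A median of 2 genes had a start within 50 kb of a region, and 48.2% of regions had 1 such gene, so the nearest gene need not be the one a region acts on.

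Of 22 gene lists written from textbook knowledge, the immediate-early and stress response genes had a region most often, with 24 of 29 (82.8%) against 15.7% of all genes. Many of these genes switch on soon after a stimulus. They had 55 regions, 38.8 per Mb of intergenic sequence, and besides Fos the list included Ier3 and Klf10 with 4 each and Gadd45g with 3, as well as Jun, Egr1 and Myc. Their median intergenic space was 49 kb, against 15.1 kb over all genes, so that more room was open to a region. H3K27ac marked the start of 28 of these 29 genes, and their 38.8 regions per Mb compare with 18 per Mb over all genes with a marked start.

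Genes of fibro-adipogenic cells, matrix and tendon came next, with a region at 16 of 25 (64.0%), among them Col6a2 with 4 and Col1a1, Col1a2 and Col3a1, the fibrillar collagen genes, with 3 each. Their median intergenic space was also 49 kb, and their 27.4 regions per Mb were fewer than those of the fast fiber, glycolysis, oxidative metabolism and housekeeping lists. Adipocyte genes had 7 of 14, satellite cell genes 8 of 18, and oxidative metabolism genes 12 of 29, with Ppargc1b at 4 regions. In the satellite cell list Notch1 and Spry1 had 4 each, while the markers Pax7, Calcr, Vcam1 and Chrdl2 had none. In the adipocyte list Adipoq had 2 and Fabp4 had 1, while Plin1 and Cidec had none. The fast and slow fiber sarcomere lists were at 8 of 24 and 5 of 15. The fast genes had 59.2 regions per Mb within a small median space of 2.40 kb, and the slow genes 26.3 per Mb within 12.4 kb. Housekeeping genes, which all cells use, were at 9 of 28 (32.1%) with 28.5 regions per Mb, so that the share of sarcomere genes with a region was like theirs. The lists of liver and neuron, whose tissues were not sampled, were at 1 of 19 and 3 of 20, at or below the background.

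The lists were next compared by how often their regions held Maf. Among the regions nearest to calcium handling and excitation-contraction coupling genes 6 of 16 held a Maf peak (37.5%, 15.2 to 64.6), and for the fast fiber sarcomere list it was 6 of 18 (33.3%, 13.3 to 59.0), against 9.20% of all intergenic regions. These regions were wide, with medians of 3122 and 2656 bp, and all intergenic regions of the same widths held Maf in 11.5% and 13.1% of cases. The lower limit of 13.3% for the fast fiber list is close to that 13.1%. The list also counts Pvalb, a calcium buffer gene and not a sarcomere gene, whose 1 region is among the 6 with Maf. Glycolysis and creatine kinase genes had 4 of 14 (28.6%, 8.39 to 58.1), at a median width of 3049 bp. All intergenic regions of those widths held Maf in 13.0% of cases, and that interval includes both 13.0% and 9.20%. The slow fiber sarcomere list had 0 of 7, for which the interval reached 41.0%, so that fast and slow genes were not told apart at these numbers. H3K27ac marked the start of 10 of 15 slow genes, against all 24 fast genes, which also limits this comparison. The intervals are not adjusted for the 22 lists, some genes stand in 2 lists, and by Maf list 1 alone the calcium handling and fast fiber lists had 1 region each, those of Calm2 and Myh2.

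The calcium handling regions with Maf included those of Calm2, Cacng1, a subunit of the muscle calcium channel, and Jph1, which holds the junction of the triad, at positions 12, 198 and 1240 of list 2. Sypl2 and Orai1, named here because their regions hold Maf, stood at positions 1372 and 1668. These 5 lay upstream, between 5.38 and 22.9 kb from the start.

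In the fast fiber list the first after Myh2 was the region 19.4 kb upstream of Myot, the gene of the Z-disc protein myotilin, at position 1351 and 8947 bp wide. Myl1, an essential myosin light chain gene, had 5 regions, of which those 40.7 and 32.1 kb upstream held Maf at positions 2203 and 5355. Tpm1, a tropomyosin gene, had a Maf peak at position 3898 in a region 28.5 kb upstream. Among glycolytic genes, Ldha, which encodes lactate dehydrogenase A, had regions of 6872 and 6432 bp at 17.7 and 7.65 kb upstream, both with Maf, at positions 824 and 968. Hk2, the muscle hexokinase, had its Maf peak 32.8 kb upstream at position 2781.

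For each list of the other cell types of muscle, the share of regions with Maf could not be told from the 9.20% of all intergenic regions. The fibro-adipogenic, matrix and tendon list had 1 of 35 (2.86%, 0.0723 to 14.9), that of Dpt at position 3687. The endothelial list had 1 of 12, that of Sox7 at position 220 (interval 0.211 to 38.5), and the smooth muscle and pericyte, macrophage and blood, and adipocyte lists had 0 of 7, 0 of 5 and 0 of 10, for which the intervals reached 41.0%, 52.2% and 30.8%. The immediate-early list had 7 of 55 (12.7%, 5.27 to 24.5), close to the 9.87% of all intergenic regions of the same widths. Myogenic regulators had 3 of 20, namely 2 regions of Myod1 and 1 of Six4, and the neuromuscular junction and circadian clock lists had 0 of 9 and 0 of 8.

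**Figure D4:**
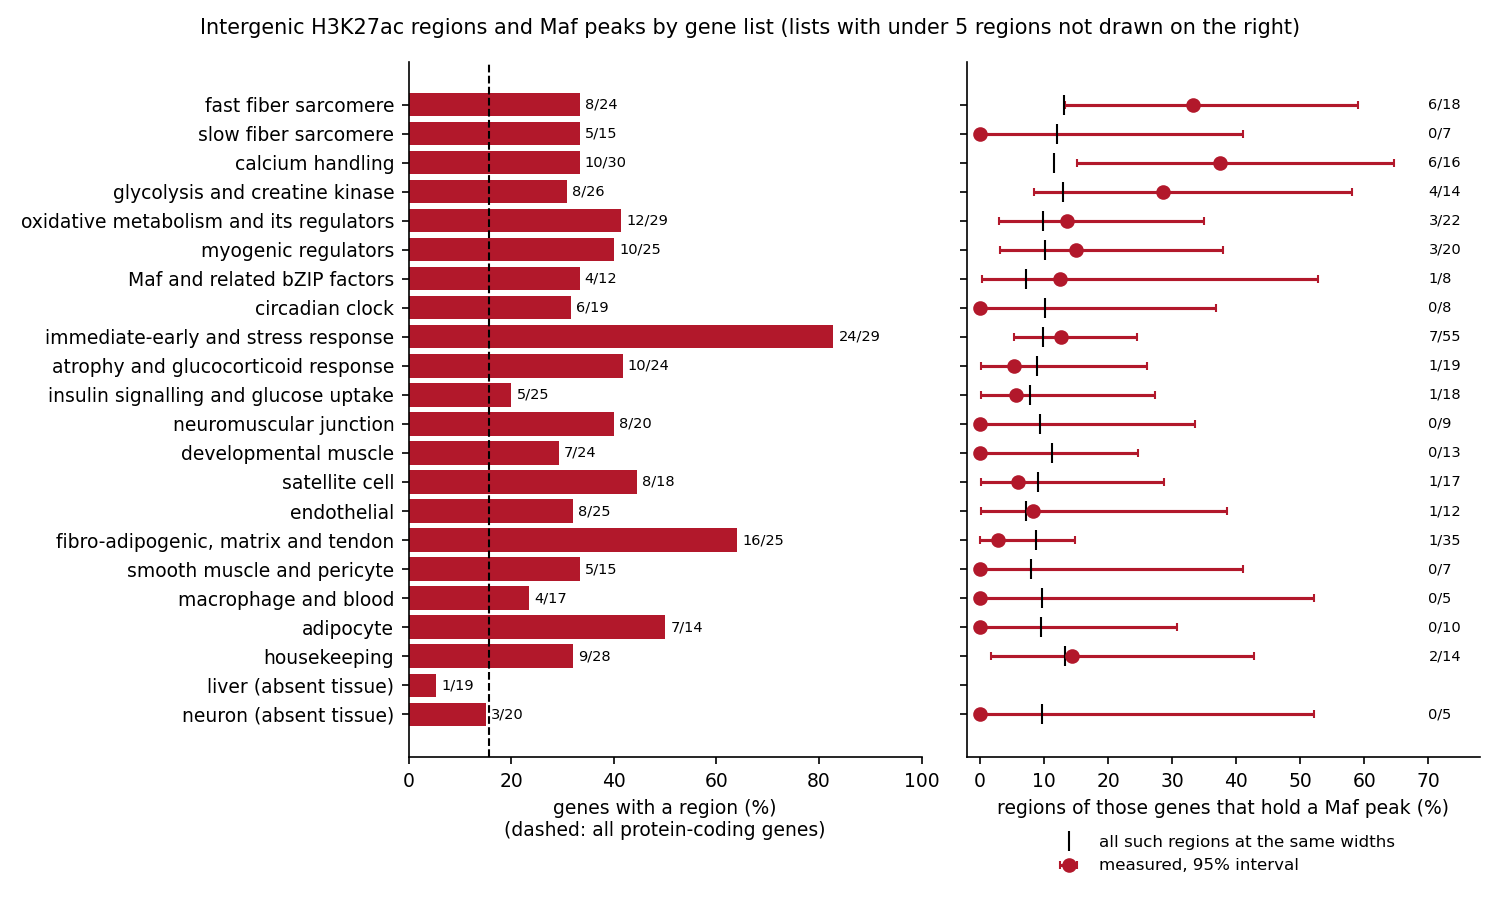
For each gene list, the percentage of its genes that are nearest to an intergenic H3K27ac region (left, dashed line at 15.7% for all protein-coding genes) and the percentage of those regions that hold a Maf peak (right, points with 95% Clopper-Pearson intervals). Black ticks give the share of all intergenic regions of the same widths. Immediate-early genes reach 82.8% on the left, and calcium handling and fast fiber genes reach 37.5% and 33.3% on the right.

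The sequence under the Maf peaks was examined with 16 motifs searched on both strands. The Maf core TGCTGAC was found in 116 of 512 windows of 200 bp around Maf peaks in intergenic regions (22.7%, 19.1 to 26.5), against 4.39% of windows 1000 bp to either side. The share was 27.1% (24.8 to 29.5) at Maf peaks in distal regions inside genes and 14.5% (12.9 to 16.3) at Maf peaks outside H3K27ac. TGCTGA, the first 6 letters of the core, was found in 52.3% (47.9 to 56.7) of the intergenic windows, against 15.9% beside them. Nearly as many of these windows were thus without even the short form as with it. The windows are narrower than the 281 bp peaks of list 2, so a site near the edge of a peak was not counted.

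The core was most frequent near the top of list 2. It was found at 31.5% (24.5 to 39.2) of the 165 peaks among the first 1366 of the list and at 8.77% (2.91 to 19.3) of the 57 peaks among the last 1367. TGCTGA ran between 64.2% (56.4 to 71.5) and 35.1% (22.9 to 48.9) over the same groups. For the AP-1 site TGACTCA these shares were 12.7% (8.05 to 18.8) and 10.5% (3.96 to 21.5), with intervals that overlap. Of the 13 Maf peaks in intergenic regions that were called in both lists, 6 had the core and 11 the short form.

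Other motifs were also more frequent at the Maf peaks than beside them. The E-box CAGCTG was found in 25% (21.3 to 29.0) of the windows, against 9.86% beside them, the AP-1 site in 12.9% (10.1 to 16.1) against 4.49%, the Mef2 site in 6.45% (4.48 to 8.93) against 2.93%, and the Sp1 and Klf box GGGCGG in 7.42% (5.31 to 10.0) against 2.83%. The AP-1 site can share its letters TGAC with the Maf core. A glucocorticoid response element was found in 1.95% (0.940 to 3.56), against 0.195%. At the centres of all 5379 regions, with or without Maf, GGGCGG stood at 7.53%, so its rise was not particular to Maf peaks. The E-box, AP-1 site, Mef2 site and glucocorticoid element stood at 15.8%, 5.34%, 4.35% and 0.502% of these centres, below their shares at Maf peaks. The MCAT element CATTCC of Tead factors was at 11.3% (8.72 to 14.4), against 10.6% beside, and the Runx site TGTGGT at 11.9% (9.24 to 15.0), against 15.3%, so that the value beside lay within the interval for MCAT and just above it for Runx.

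**Figure D5:**
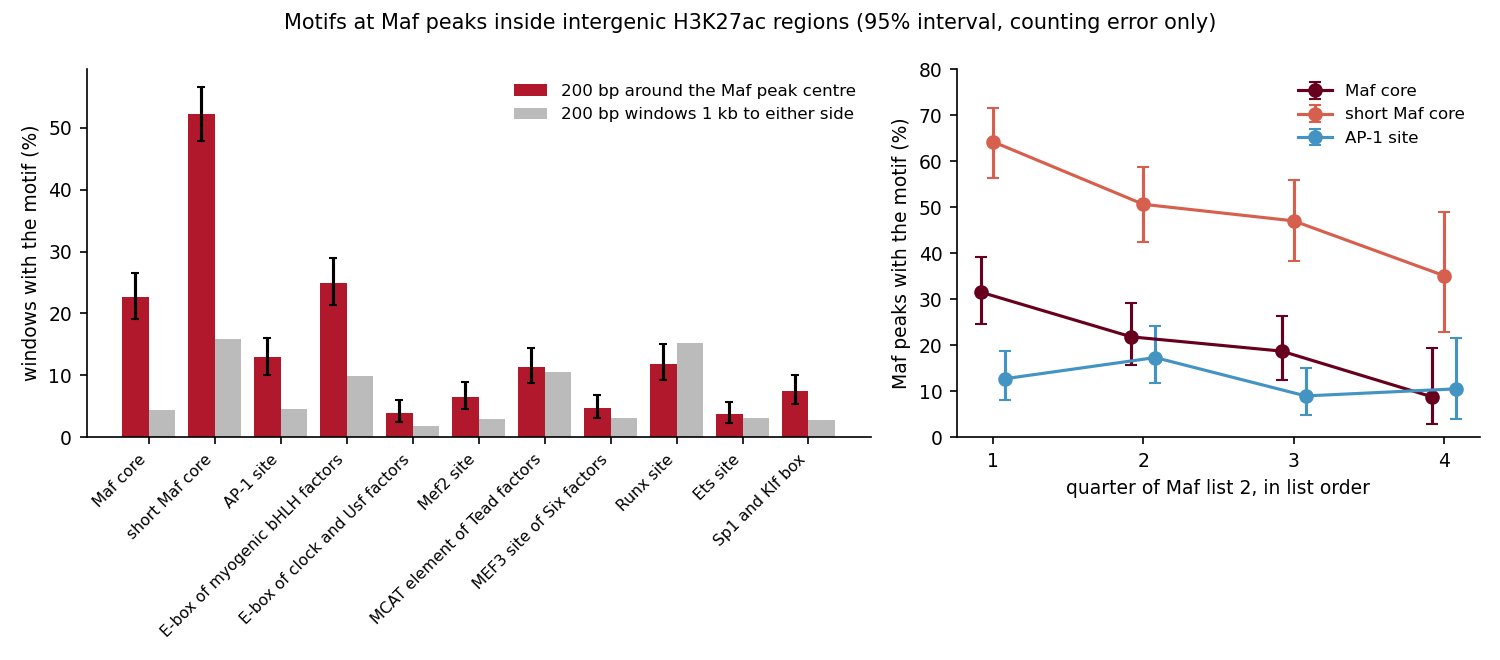
Left, percentage of 200 bp windows that hold each motif at 512 Maf peaks in intergenic H3K27ac regions (red, with 95% Clopper-Pearson intervals) and in windows 1 kb to either side (grey). Right, percentage of these Maf peaks with the Maf core, its short form and the AP-1 site in 4 groups along Maf list 2. The Maf core is at 22.7% at the peaks and 4.39% beside them, with 31.5% in the first group and 8.77% in the last.

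Over the centres of all 5379 regions, whether bound by Maf or not, the Maf core was found in 3.66% (3.18 to 4.20) of 200 bp windows, against 3.10% 1000 bp outside the edges. It was 4.19% (3.89 to 4.52) in distal regions inside genes, 4.61% (3.99 to 5.30) beyond 50 kb and 2.41% at promoters. The regions stood out from their flanks for other sites. The E-box CAGCTG was at 15.8% (14.8 to 16.8), against 8.89% outside, the AP-1 site at 5.34% (4.75 to 5.97), against 3.35%, the Mef2 site at 4.35% (3.82 to 4.93), against 3.09%, and the Ets site CGGAAG at 4.91% (4.35 to 5.52), against 2.68%.

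Set beside promoters, intergenic regions had more Mef2 sites (4.35% against 0.853%), more AP-1 sites (5.34% against 1.71%) and fewer Sp1 and Klf boxes (7.53% against 43.3%), and the intervals of each pair did not overlap. From distal regions inside genes they differed less. GGGCGG was at 7.53% (6.84 to 8.27), against 5.13% (4.79 to 5.48), and CGGAAG at 4.91% (4.35 to 5.52), against 3.63% (3.34 to 3.93), while CAGCTG was at 15.8% (14.8 to 16.8), against 15.7% (15.1 to 16.2). A motif match is a stretch of letters and not a bound site.

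Base composition set the regions apart from promoters in the same way. Their median GC content was 47.6% and their median ratio of observed to expected CpG 0.219, against 46.6% and 0.219 in distal regions inside genes, 45.7% and 0.211 beyond 50 kb, and 53.4% and 0.619 at promoters. A CpG ratio over 0.6 was seen in 2.97% of intergenic regions, 1.81% of distal regions inside genes, 1.72% of regions beyond 50 kb and 54.0% of promoters.

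Some of the regions were near starts of noncoding genes, which the rule did not use. Within 1 kb of the start of a long intergenic noncoding RNA lay 212 of them (3.94%), against 0.198% of distal regions inside genes and 4.88% of regions beyond 50 kb. Maf peaks were in 19 of these 212 (8.96%, 5.48 to 13.6), against 9.21% (8.44 to 10.0) of the other intergenic regions. The Maf peaks at such starts were led by the region of AC122818.4 beside Calm2.

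At the limits of the rule, the widest regions inside it were those of Plpp1 (9985 bp) and Whamm (9945 bp), and the narrowest outside it were those of Rem1 (10034 bp) and Gm10604 (10100 bp). Of these, Whamm and Gm10604 held a Maf peak of list 2, at positions 900 and 702. The regions just past 1 kb were those of Dgke and Oaz1, at 1002 and 1009 bp, and just within it those of Rgma and Ltc4s, at 995 and 990 bp. The regions nearest to 50 kb were those of P4ha2 and Ugcg inside, at 49990 and 49979 bp, and Ccnl1 and Nxt1 outside, at 50003 and 50011 bp. None of these regions at the distance limits held Maf.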

How the data were processed

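ChIP-seq for Maf and H3K27ac was analysed from 4 peak lists, 2 per target, each called by the authors in 1 sample. The submitters' processing notes name bcl2fastq 2.17, FastQC, Bowtie2 2.3.2, Picard 2.10.3 and HOMER. The study states a false discovery rate threshold for its Maf peaks, and other settings of the caller are not given in the sources used here. The deposited score column holds 1 for every region, so scores were not used, and read depth is unknown. The inputs were not analysed here. The result for 1 region is not reported here.

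The lists fitted the chromosomes of GRCm38. From GENCODE vM21 (basic), 41433 starts of protein-coding transcripts were taken, with 21827 gene names. Regions were joined and classed as stated above, and an overlap needed 1 shared base. Bins of intergenic sequence were counted on a grid of the assembly without gaps. Sequences and motifs came from the RefSeq copy of GRCm38. Shares carry 95% Clopper-Pearson intervals and differences Newcombe intervals, or a normal interval where widths were weighted. No p-value was computed, since 2 lists per target allow none that could pass a threshold. The joining, nearest-start and overlap steps were tested on simulated data, and the classing and motif steps were not. The members, the 22 gene lists with 483 of 485 entries matched, the motifs and the rules for named genes were chosen with earlier results of these data known. Named genes were those of the first 15 Maf list 2 peaks and up to 10 Maf list 1 peaks in the regions, the 10 genes with most regions, up to 4 genes per list, the widest regions, regions at each limit, and 16 loci with known distal elements. Alternatives changed the joining, width limit, gene annotation, overlap, Maf list and window, and left out each list in turn. Python 3.11.15 with numpy 2.4.6, pandas 2.3.3, SciPy 1.17.1 and matplotlib 3.10.9 was used.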

Additional observations from a re-analysis of the deposited data

How the results depend on the processing

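Of 56 values recomputed under alternatives, 47 stayed within 1.5 times the count or within the interval of the value reported. Leaving out H3K27ac replicate 1 or 2, so that the other list alone chose the regions, gave 7041 to 7166 regions, 4094 to 4151 genes, a median distance of 16915 to 17181 bp, and the Maf core at 3.77% to 3.89% of region centres. The share with Maf was then 7.44% to 7.46%, and over all settings that left out a list, Maf lists included, it ran between 0.242% without Maf replicate 2 and 9.20%. The Maf core at Maf peaks likewise ran between 22.7% and 46.2%, where 46.2% comes from 13 peaks of Maf replicate 1. Statements on Maf in these regions thus rest on replicate 2. A width limit of 5000 bp gave 8.10% with Maf, and the first 50% of Maf list 2 gave 5.74%. Counting every gene with a start within 50 kb gave 6513 genes. Windows of 400 bp around the Maf peak raised the core to 26.8%, and windows of 1000 bp at the region centre to 17.2%, as wider windows hold more sequence. The replicate block, with overlaps counted between same-numbered lists only, gave 9.09%, and whether these numbers pair the samples could not be checked from positions alone. Starts of the comprehensive GENCODE annotation, an alternative chosen after seeing the data, gave 5467 regions and 9.24% with Maf. Read depth is unknown, Maf list 1 is short, and a region without a peak in a list may still be bound below its threshold.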

Other observations

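The following values were chosen after they had been seen. Among the 13 intergenic regions with Maf in both lists, 2 whose nearest gene is no fiber gene lay within 50 kb of the marked start of a fast fiber gene. These were the region of Ncf4, 36.1 kb from the start of Pvalb, and the region of Ctsd, a lysosomal protease gene, at position 65 of Maf list 1 and position 407 of list 2, which lay 42.7 kb from the start of Tnni2, the fast troponin I gene. The share of all intergenic regions that lie within 50 kb of such a start was not counted. These 2 cases therefore cannot be set against a background and show no link to fast fiber genes.

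The glucocorticoid response element, an inverted repeat bound by steroid receptors, was found at the centre of 27 of 5379 intergenic regions (0.502%, 0.331 to 0.729), against 0.102% of windows outside their edges. It was found in 0.396% (0.304 to 0.507) of distal regions inside genes, 0.736% (0.497 to 1.05) of regions beyond 50 kb and 0.0540% (0.0175 to 0.126) of promoters. The counts are small and their cause was not tested.

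The 122 intergenic regions that covered a protein-coding start held Maf in 15.6% (9.64 to 23.2) of cases, against 9.05% (8.29 to 9.86) of the other 5257. They were also wider, with a median of 5554 bp against 1737 bp. Outside the classes compared above, joined regions of 10000 bp or more held Maf in 40.8% (336 of 824) and regions present in a single H3K27ac list in 1.52% (264 of 17329), at median widths of 13271 and 626 bp.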
